A study of Mus musculus with 2 samples.

Results

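The granules of mast cells are described here through 6 of the 32285 genes measured. They are Cpa3 (carboxypeptidase A3), Mcpt4 and Cma1 (chymases), Tpsb2 and Tpsab1 (tryptases) and Hdc (histidine decarboxylase). The members were chosen as these 6 symbols. The counts came from droplet libraries of dorsal skin cells of wild-type (WT) male mice, 1 library at 9 weeks and 1 at 108 weeks of age, each from 2 pooled mice. Cells were released with collagenase and dispase and sorted for F4/80 together with high MHC class II, a gate for macrophages. Both libraries stand in 1 matrix, where barcode suffixes 1 and 2 mark them but nothing used here ties a suffix to an age. They are therefore given as libraries of unknown age, no comparison of ages was made, and with 1 library per age none could be tested. Cells were kept with 500 or more genes, 1000 or more UMIs (distinct RNA molecules) and no more than 10% mitochondrial UMIs, so that 3797 of 5257 barcodes remained, 2396 with suffix 1 and 1401 with suffix 2, with a median of 10870 UMIs per cell. The libraries shared 1 barcode sequence. A mast cell was a cell with at least 2 of the 6 genes detected, which gave 41 cells.

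Mast cells are long-lived sentinels of skin and mucosa. Connective tissue mast cells pack their granules with chymases, tryptases and carboxypeptidase A, which are bound to heparin on the proteoglycan serglycin, and with histamine, which Hdc makes from histidine. They carry the stem cell factor receptor Kit and the high-affinity IgE receptor and release the granules when these receptors or Mrgprb2 are engaged. Hdc is also known from basophils and from neutrophils and their precursors, whereas the proteases are far more restricted.

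The 6 genes lie on 4 chromosomes of the mouse genome (GRCm38, gene models of GENCODE vM21), all of them protein-coding. Cpa3 spans chr3:20215620-20242181 and Hdc spans chr2:126593667-126619299, both on the minus strand. Cma1 (chr14:55941451-55944675) and Mcpt4 (chr14:56059629-56062313) are on the minus strand in the chymase cluster, with 114953 bases between them. The tryptases Tpsab1 (chr17:25343245-25345562, minus strand) and Tpsb2 (chr17:25366305-25369098, plus strand) are 20742 bases apart. The longest coding transcripts of the tryptases were 83.2% identical over their aligned bases and those of the chymases 75.6%. No 91-base window, the length of the cDNA read, of either tryptase occurred exactly in that transcript of the other, nor did one of either chymase in the other, so that a full-length read without errors tells them apart.

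The stretches before the starts of the genes are shown because the genes were found together in the same cells. RefSeq promoter windows on GRCm38.p6 were given for 4 of the 6 genes, without Tpsb2 and Tpsab1. The 250 bases before the start are printed 5′ to 3′ on the strand of the gene. Capitals mark matches on either strand to the word AGATAA, the word TGATAA, the word AGATAG or the word TGATAG, the letters bound by GATA factors, of which Gata2 is a mast cell regulator.
Cpa3, chr3:20242182-20242431, minus strand: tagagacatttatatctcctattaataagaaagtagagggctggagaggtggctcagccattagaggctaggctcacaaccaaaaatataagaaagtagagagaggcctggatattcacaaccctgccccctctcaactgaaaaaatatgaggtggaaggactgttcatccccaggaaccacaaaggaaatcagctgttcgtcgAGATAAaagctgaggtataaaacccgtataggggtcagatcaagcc
Mcpt4, chr14:56062311-56062560, minus strand: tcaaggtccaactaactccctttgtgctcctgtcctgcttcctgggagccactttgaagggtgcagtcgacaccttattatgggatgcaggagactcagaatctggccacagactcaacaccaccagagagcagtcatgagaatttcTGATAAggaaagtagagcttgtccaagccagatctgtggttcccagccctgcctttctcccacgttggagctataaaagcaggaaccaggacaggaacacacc
Cma1, chr14:55944676-55944925, minus strand: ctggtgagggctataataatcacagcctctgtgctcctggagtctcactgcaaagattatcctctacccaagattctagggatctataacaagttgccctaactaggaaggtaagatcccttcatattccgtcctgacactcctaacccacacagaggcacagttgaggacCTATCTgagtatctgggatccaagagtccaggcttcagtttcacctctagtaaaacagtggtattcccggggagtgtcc
Hdc, chr2:126618679-126618928, minus strand: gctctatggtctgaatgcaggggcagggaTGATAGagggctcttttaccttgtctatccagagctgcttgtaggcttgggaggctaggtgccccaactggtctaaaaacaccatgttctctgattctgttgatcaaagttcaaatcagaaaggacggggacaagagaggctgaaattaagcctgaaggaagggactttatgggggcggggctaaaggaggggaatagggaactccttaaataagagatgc
Each of the 4 windows held 1 such match, which began 46 bases before the start in Cpa3, 103 in Mcpt4, 79 in Cma1 and 221 in Hdc. Of all 32851 RefSeq windows of this length, 26.5% held at least 1. The word CATGTG and the word CACGTG, bound by Mitf, had 0 matches on either strand in the 4 windows, and 17.6% of all windows held 1 or more. The last 3 bases of the Mcpt4 window are in a GENCODE exon of the gene, and the Hdc window lies in an intron of a longer GENCODE model of Hdc. A match describes the letters of these windows and shows no binding.

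The 41 mast cells were 1.08% of the 3797 cells (95% Clopper-Pearson interval 0.776 to 1.46%). They fell into 2 sets with a wide gap between them. In 32 cells, 4 to 6 of the genes were detected, with 38 to 1269 UMIs of the 6 genes per cell and a median of 200.5. The other 9 cells had 2 or 3 of the genes and 2 to 5 UMIs of them. No cell was found in between. Outside the 41 cells, 230 cells had 1 of the genes and 3526 had none.

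The 32 cells and the 9 cells also differed in genes that played no part in the choice. Kit, the IgE receptor genes Fcer1a and Ms4a2, and the receptor gene Mrgprb1 were searched together, and every one of the 32 cells had at least 1 UMI of them. Of the 9 cells, 0 had one. The 9 cells were deep, with a median of 18335 UMIs against 3536 in the 32, and they lay among macrophage-like (4 cells), fibroblast-like (3 cells), monocyte-like (1 cell) and endothelial-like (1 cell) clusters. Where mast cells are meant by the rule of 2 genes, these 9 are included, although their markers go against the name. They hold 267034 of the 438870 UMIs of the 41 cells, so that levels are also given over the 32 cells.

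**Figure D1:**
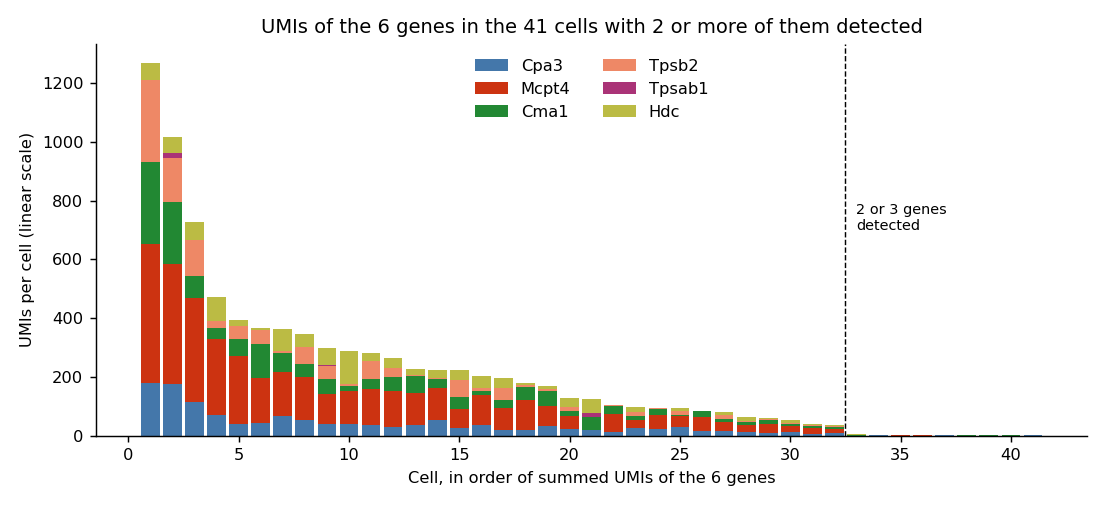
UMIs of the 6 genes per cell, on a linear scale, in each of the 41 mast cells in order of their sum, with 1 colour per gene. The 32 cells left of the dashed line reach from 38 to 1269 UMIs and are mostly Mcpt4, and the 9 cells right of it have 2 to 5.

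Clustering of all 3797 cells without the 6 genes, the mast cell gene lists or the mast cell markers gave 28 clusters, named by marker lists as X-like because the names are rebuilt here. One cluster of 29 cells received the mast cell name, and all 29 were among the 32 cells. Cells 17, 28 and 29, counted from the cell with the most UMIs of the 6 genes, were the other 3 and fell into a monocyte-like, a macrophage-like and a fibroblast-like cluster. Cell 29 had 143 UMIs of the collagen gene Col1a1 and cell 28 had 123 UMIs of 12 macrophage markers. Inside the mast-like cluster, cells 7 and 10 held 193 and 126 UMIs of those macrophage markers, and the remaining 27 cells held at most 3. Whether these 5 barcodes held more than 1 cell was not tested.

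By library, 12 of the 2396 cells with suffix 1 had 4 or more of the genes (0.501%, interval 0.259 to 0.873%), against 20 of the 1401 with suffix 2 (1.43%, interval 0.874 to 2.20%). By the rule of 2 genes these were 17 cells (0.710%) and 24 cells (1.71%). For 4 or more genes the intervals lie next to each other without overlap, and for 2 or more they overlap (0.414 to 1.13% and 1.10 to 2.54%). They cover counting error within 1 library each and not the spread between mice. The share also rests on the gate, which was set for macrophages.

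The RNA of the gate's own markers was scarce in the mast cells. Adgre1, which encodes F4/80, was at 0 in 27 of the 32 cells, and the MHC class II gene H2-Aa was at 0 in 21. In the macrophage-like class, 92.5% of 1357 cells had an Adgre1 UMI and 99.7% an H2-Aa UMI. The median depth of that class was 10202 UMIs against 3536 in the 32 cells. Per 1000000 UMIs, Adgre1 was at 122 in the 32 cells against 439 in that class. H2-Aa was at 1478 against 9539, and 205 of its 254 UMIs in the 32 cells were in cell 7. The part of depth in the difference in detection was not tested.

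Summed over the 41 mast cells, the 6 genes gave 8610 UMIs, or 19619 CPM, that is UMIs per 1000000 UMIs of the same cells (exact 95% Poisson interval 19206 to 20037). Over the 32 cells they gave 8584 UMIs, or 49955 CPM (48903 to 51023). In single cells of the 32, the share ran from 0.585% in cell 28 to 13.5% in cell 1, with a median of 6.29%. The lowest 4 shares were those of cells 28, 7, 29 and 10, which also carried RNA of other types. Over the 27 cells of the mast-like cluster with at most 3 macrophage marker UMIs, a set chosen after their values were seen, the level was 75700 CPM (74009 to 77421).

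**Figure D2:**
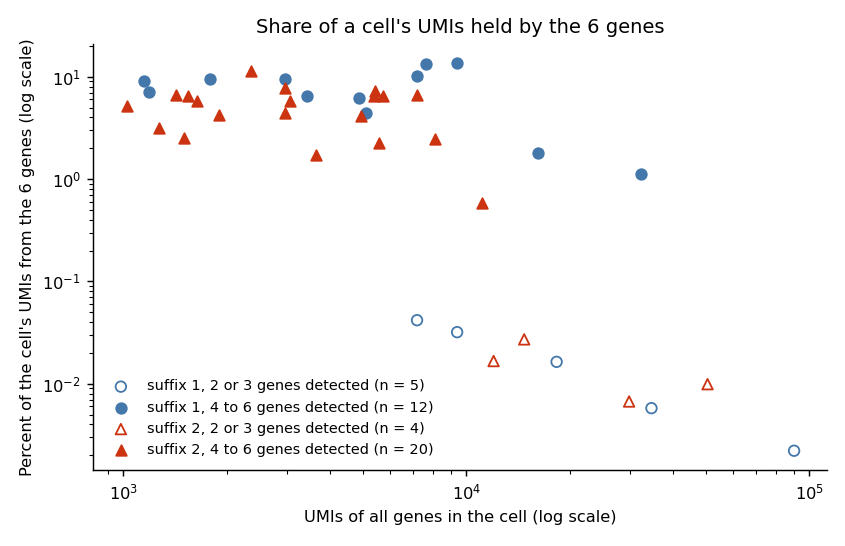
Percent of a cell's UMIs that came from the 6 genes against the total UMIs of the cell, both on log scales, for the 41 mast cells by barcode suffix. Filled symbols are the 32 cells with 4 to 6 genes detected (0.585% to 13.5%), and open symbols are the 9 cells with 2 or 3, which reach at most 0.0418%.

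Mcpt4, the mouse counterpart in function of human chymase, was the most abundant. Over the 32 cells it reached 21276 CPM (20592 to 21977), with 0 UMIs in the lowest cell, a median of 86.5 and 471 in the highest. It made up 42.6% of the UMIs of the 6 genes and was the highest of them in 30 of the 32 cells. Since the counts are of 3′ ends, each molecule counts once and levels of different genes can be set side by side without a length correction.

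Cma1, the other chymase, was found in all 32 cells, with 5 to 280 UMIs per cell, a median of 32 and 8741 CPM (8304 to 9194). Cpa3, which trims the C termini of peptides, was likewise found in all 32, with 6 to 181 UMIs, a median of 30 and 7816 CPM (7403 to 8245). The intervals of Cma1 and Cpa3 do not overlap, but over the cells their medians lie well within each other's range. Both were detected in every one of the 32 cells, which none of the other 4 genes was.

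Tpsb2, a tryptase stored as a tetramer on heparin, was more uneven. It had 1084 UMIs in 31 of the 32 cells and 6308 CPM (5938 to 6695), with a median of 11.5 and a highest value of 277 UMIs. Cells 1, 2 and 3 alone held 277, 150 and 120 of them, and without cell 1 the level was 4968 CPM (4631 to 5323). Tpsab1, the paralogous tryptase, was nearly absent at 239 CPM (171 to 324): it had 41 UMIs in 8 cells, of which 17 were in cell 2 and 11 in cell 21. In the median cell it was at 0, and without cell 2 its level was 146 CPM (93.6 to 217).

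Hdc had 958 UMIs in 30 of the 32 cells, a median of 23, a highest value of 112 in cell 10, and 5575 CPM (5228 to 5940). The 2 cells at 0 were cells 22 and 26, which were shallow, with 1150 and 1188 UMIs in all. Hdc was above Mcpt4 in cells 10 and 21, with 112 against 110 UMIs and 48 against 0, and below it in the other 30. In the order of levels over the 32 cells, Tpsb2 and Hdc are neighbours whose intervals touch, and all other neighbours were apart by more than counting error. Without cell 1, Tpsb2 was at 4968 CPM (4631 to 5323), below the Hdc level of all 32 cells. Cell 1 also held 280 Cma1 UMIs and 181 Cpa3 UMIs, and the order of the other genes without it was not tested.

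Over the 41 cells, the levels fell in the same order, with Mcpt4 at 8342 CPM, Cma1 at 3441, Cpa3 at 3067, Tpsb2 at 2477, Hdc at 2199 and Tpsab1 at 93.4. The 9 cells contributed 3 UMIs of Cpa3, 5 of Mcpt4, 8 of Cma1, 3 of Tpsb2, 0 of Tpsab1 and 7 of Hdc. Among all genes ranked by level in the 41 cells, Mcpt4 stood at rank 4, Cma1 at 20, Cpa3 at 26, Tpsb2 at 35, Hdc at 50 and Tpsab1 at 1863.

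**Figure D3:**
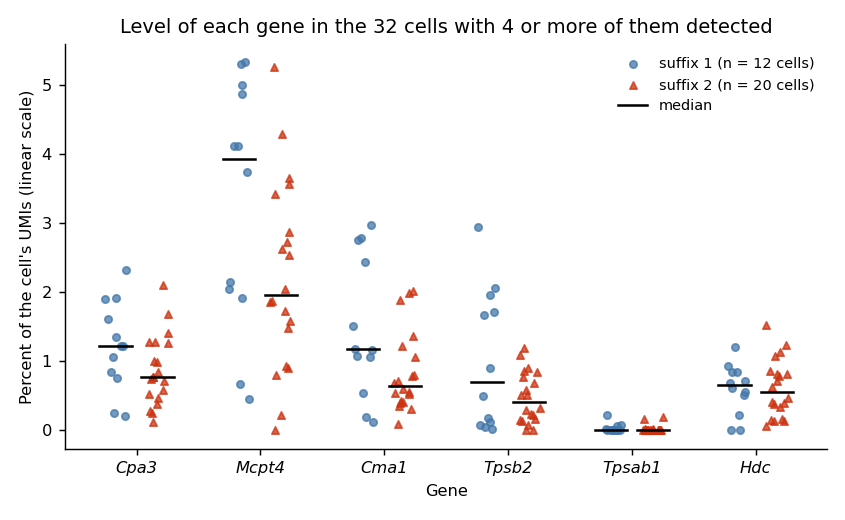
Percent of each cell's UMIs from each gene, on a linear scale, in the 32 cells with 4 or more genes detected, as circles for suffix 1 (12 cells) and triangles for suffix 2 (20 cells), with a line at each median. Mcpt4 is the highest gene in both libraries and the points of the libraries overlap for each of the 6 genes.

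Over the 32 cells, the summed level was 54183 CPM in the 12 cells of suffix 1 and 44943 in the 20 of suffix 2. Mcpt4 was at 22135 and 20259, Cma1 at 9689 and 7618, and Cpa3 at 8616 and 6867. Tpsb2 was at 7983 and 4324, Tpsab1 at 268 and 203, and Hdc at 5493 and 5672. In these sums suffix 1 was higher for each gene but Hdc, while the single cells of the libraries overlapped in each. The intervals overlapped for Mcpt4 (21190 to 23111 and 19276 to 21279), Tpsab1 (174 to 396 and 116 to 330) and Hdc. Cells 1, 2 and 3, with 1269, 1017 and 726 UMIs of the 6 genes, all had suffix 1. Without cell 2, Tpsab1 had 8 UMIs with suffix 1 against 16 with suffix 2. The share of the 6 genes per cell had a median of 8.10% with suffix 1 and 5.49% with suffix 2.

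Mcpt4 took the largest share of the granule RNA in both libraries. The shares of Mcpt4, Tpsb2 and Hdc differed between libraries by more than counting error, and those of Cpa3, Cma1 and Tpsab1 did not. Of the UMIs of the 6 genes, Mcpt4 took 40.8% (39.4 to 42.2%) in the 17 mast cells of suffix 1. In the 24 of suffix 2 it took 45.0% (43.3 to 46.6%). Cpa3 took 15.9% and 15.3%, Cma1 took 18.0% and 16.9%, and Hdc took 10.1% and 12.7%. Tpsb2 differed most, at 14.7% (13.8 to 15.7%) and 9.61% (8.66 to 10.6%), and its highest 3 cells all had suffix 1. The intervals do not cover the spread between cells or mice.

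Across the 32 cells, the share of UMIs from Mcpt4 rose with that from Cma1 (Spearman rho 0.81) and from Cpa3 (rho 0.73), whereas that from Hdc did not follow Mcpt4 (rho 0.06). Tpsb2 lay between, at rho 0.57 with Mcpt4 and 0.49 with Hdc. These are descriptions over cells of 2 libraries that share depth and RNA of other types, not over samples. Cell 21 stood apart in kind: it had 0 UMIs of Mcpt4 and of Tpsb2, but 21 of Cpa3, 44 of Cma1, 11 of Tpsab1 and 48 of Hdc among 5545 UMIs. It also had 117 of the 155 Gzmb UMIs and 93 UMIs of Serpinb1a, the highest of any mast cell, 4 UMIs of Kit and 6 of Mrgprb1. Gzmb encodes granzyme B, a serine protease of cytotoxic granules, and was found in 5 of the 32 cells. Its level was 902 CPM (766 to 1056) over the 32 and 229 (162 to 314) without cell 21.

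Against all other cells, the ratio of levels was very large for the proteases and smaller for Hdc. On the log2 scale the ratio of CPM in the 41 mast cells over the other 3756 cells was 13.76 for Tpsb2, 13.54 for Cpa3, 13.10 for Mcpt4, 12.54 for Cma1, 10.62 for Tpsab1 (8.97 to 12.95, with 3 UMIs in the other cells) and 8.48 for Hdc. The rule chose the cells by these genes, so that the ratios describe and test nothing. Of the 13480 genes with at least 50 UMIs, 1.69% were at least 4-fold higher and 16.1% at least 4-fold lower in the 41 cells. For the 32 cells against all others these were 2.71% and 34.7%. A gene with 0 UMIs in the chosen cells counted as lower at any depth. Of the 2169 genes lower in the 41 cells, 1907 were of this kind. The part of depth in these shares was not tested. All 5 members that reached 50 UMIs were above 4-fold by either choice of cells, and Tpsab1 with 44 UMIs was not counted.

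The genes of a mast cell's other functions were read from 8 lists, which held 63 genes other than the 6. Of these, 54 had at least 50 UMIs: 23 were at least 4-fold higher and 1 lower in the 41 cells, and 27 were higher and 6 lower in the 32 cells, where all genes gave 2.71% and 34.7%. The median log2 ratio over the 53 of them with UMIs in both sets was 1.45 in the 41 cells, beside 0.13 over all genes. With no replicate libraries these are counts and not tests. Of the 23, 8 reached 50 UMIs only with the help of the mast cells, so that they had to be higher. Of the 6 lower in the 32 cells, Kitl, Il33, Hnmt, Glce and Ltc4s had 0 UMIs there, which counts as lower at any depth. Among the 46 genes with at least 50 UMIs in the other cells alone, a minimum set after seeing the data, 15 were higher and 1 lower, where all 13452 such genes gave 1.56% and 16.1%.

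Among the receptors, Mrgprb1, a member of the Mrgpr family, had 310 UMIs in the 32 cells, at least 1 in each, against 3 in all other cells. Kit had 154 UMIs in 31 of the 32 cells, with 896 CPM and a log2 ratio of 8.20 over all others. Mrgprb2, the receptor for cationic peptides and drugs, had 61 UMIs in 20 cells, the adenosine receptor gene Adora3 had 123 in 22, and Il1rl1, the IL-33 receptor, had 73 in 11. Cd200r3 had 35 UMIs in 16 cells, and Csf2rb and Il3ra, chains of cytokine receptors, lay within 4-fold at log2 ratios of 1.72 and 1.30. Of the 10 genes of the list of receptors and growth factors, 6 were at least 4-fold higher and 1 lower in the 41 cells. Of the 7 with at least 50 UMIs in the other cells alone, 3 were higher and 1 lower, beside 1.56% and 16.1% of all such genes.

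The ligands of Kit and Il1rl1 were found in other cells. Kitl, the stem cell factor that mast cells need, had 0 UMIs in the 32 cells and was highest in the pericyte or smooth muscle-like class at 402.6 CPM. Il33 likewise had 0 UMIs there and was highest in the Schwann-like class at 207 CPM.

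For the IgE receptor, Ms4a2 (the beta chain) had 54 UMIs in 22 of the 32 cells and 0 in all other cells. Fcer1a (the alpha chain) had 30 UMIs in 13 cells against 1 elsewhere. The gamma chain gene Fcer1g, shared with macrophages, was at a log2 ratio of 1.26 in the 32 cells. Of the signalling genes, Lat (log2 ratio 5.81), Btk (3.41) and Lat2 were above 4-fold in the 32 cells, and Lyn and Syk were not, at log2 ratios of 1.09 and 0.73. Plcg1 (1.90) and Plcg2 (1.19) lay within 4-fold too. Of 9 genes of this list with enough UMIs, 3 were higher in the 41 cells and 0 lower. Of the 8 with at least 50 UMIs in the other cells alone, 2 were higher, beside 1.56% of all such genes.

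Among granule genes other than the 6, the tryptase gene Tpsg1 had 85 UMIs in 29 of the 32 cells and 2 elsewhere, and the protease inhibitor gene Serpinb1a had 623 UMIs in 31 cells at a log2 ratio of 7.47. Srgn, the core protein of serglycin, was found in all 32 cells at 3253 CPM but was below 4-fold (log2 ratio 1.96). It is known from leukocytes in general. Ctsg, cathepsin G, had 18 UMIs in 5 cells and 0 elsewhere. The mucosal mast cell proteases Mcpt1 and Mcpt2 and the uterine one, Mcpt9, had 0 UMIs in the 41 cells. That allows a level of up to 17.5 CPM each over the 32 cells and up to 6.84 CPM over the 41. Mcpt8, the basophil protease, had 1 UMI in 1 cell.

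For amines, Slc18a2, which loads histamine and serotonin into vesicles, had 67 UMIs in 21 of the 32 cells and a log2 ratio of 10.57. The serotonin transporter gene Slc6a4 had 98 UMIs in 25 cells, and Tph1, the first enzyme of serotonin synthesis, had 25 in 10. Maob, a monoamine oxidase, had 37 in 19 (log2 ratio 4.21), and Ddc had 9 in 3. Hnmt, which inactivates histamine, had 0 UMIs in the 32 cells. Of the 4 genes of this list with enough UMIs, 3 were higher in the 41 cells and 0 lower. Of the 3 with at least 50 UMIs in the other cells alone, 2 were higher, beside 1.56% of all such genes.

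The heparin genes were mixed. Ndst2, the sulfotransferase on which mast cell heparin depends, had 14 UMIs in 9 of the 32 cells (log2 ratio 2.87), and Hs3st1 had 28 in 10 (4.78). Ext1 (2.28) and Hs2st1 (2.55) were also above 4-fold in the 32 cells, and Glce had 0 UMIs there. Ndst1, Ext2 and Hs6st1 lay within 4-fold, at 0.15, -1.35 and 0.47. Of 8 genes, 2 were higher in the 41 cells and 0 lower, beside 1.69% and 16.1% of all genes.

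In the eicosanoid list, only Hpgds, the synthase of prostaglandin D2, was above 4-fold, with 64 UMIs in 19 of the 32 cells and a log2 ratio of 3.51. Ltc4s had 0 UMIs in the 32 cells, Ptgs1 and Alox5 1 each, and Ptgs2 4 UMIs in 1 cell. Alox5ap (log2 ratio -0.46) and Pla2g4a (-0.73) lay within 4-fold. Depth limits such values, since 3 UMIs over the 32 cells correspond to 17.5 CPM.

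Of the transcription factors, Gata2 (102 UMIs in 21 of the 32 cells) and Tal1 (49 in 23) were at log2 ratios of 6.36 and 5.56, Mitf was at 1.86, and Gata1 had 4 UMIs in 4 cells and 0 elsewhere. Stat5a (-0.80), Stat5b (0.16) and Bhlhe40 (-1.87) lay within 4-fold. Of 6 genes with enough UMIs, 2 were higher in the 41 cells and 0 lower, beside 1.69% and 16.1% of all genes. Among the 6 cytokine genes, 3 were higher in the 41 cells, namely Il4, Il13 and Csf2, and 0 lower. Of the 4 with at least 50 UMIs in the other cells alone, 1 was higher, beside 1.56% of all such genes. Csf2 had 25 UMIs in 2 of the 32 cells. Il4 had 138 UMIs in 18 of the 32 cells and Il13 had 111 in 12, but cell 1 alone held 86 and 70 of them. Without it, the level of Il4 over the 32 cells went from 803 to 320 CPM (239 to 420) and that of Il13 from 646 to 252 (181 to 342). These genes came mostly from suffix 1, with 124 UMIs of Il4 (38 without cell 1) against 14 in suffix 2, 104 of Il13 (34 without cell 1) against 7, and, over the 41 cells, 40 of Csf2 against 0. Tnf, with 47 UMIs in 14 of the 32 cells, was above 4-fold in the 32 (log2 ratio 2.40) but not in the 41, and Il6 (-1.27) and Ccl2 (0.80) lay within 4-fold.

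**Figure D4:**
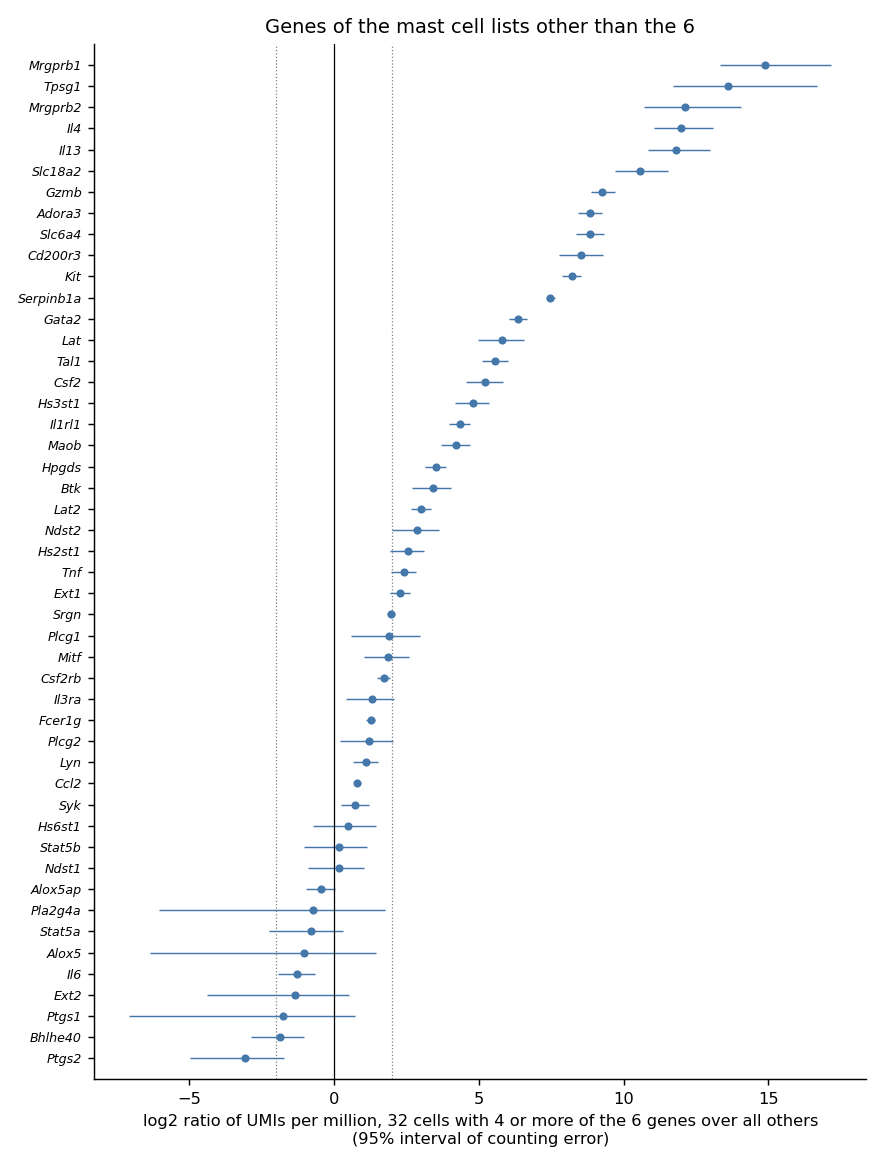
Log2 ratio of CPM in the 32 cells over all other cells, with 95% intervals of counting error, for the genes of the mast cell lists other than the 6 that had at least 50 UMIs and UMIs in both sets. Dotted lines mark 4-fold. Mrgprb1 (14.89) and Tpsg1 (13.61), with 3 and 2 UMIs in the other cells, are at the top with wide intervals, and Ptgs2 (-3.10) is the lowest.

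The 10 genes whose pattern was most like that of the 6 were ranked by their level in the 41 mast cells over that in the other class with the highest level, among genes with at least 10 UMIs in at least 3 mast cells. Those with UMIs elsewhere were, in order, Mrgprb1, Tpsg1, Fcer1a, Tph1, Il4, Cyp11a1 and Mrgprb2. The order of the first 4 rests on 1 to 3 UMIs in that other class. Ms4a2, Ctsg and Mrgprx2 had 0 UMIs in the 3756 other cells. They were taken in by a limit of 3 UMIs over all those cells together, not in 1 class, so that they have no place in the order. Cyp11a1, the enzyme that begins steroid synthesis, had 196 UMIs in 25 of the mast cells and 21 in all other cells. Of 18 mast cell markers, 12 of the 15 with enough UMIs were at least 4-fold higher in the 41 cells and 0 lower. The exceptions were Cd63, Srgn and Mitf. Of the 10 with 50 UMIs in the other cells alone, 7 were higher.

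Markers of other cells in the 41 cells were as follows. Of the 12 macrophage, 8 endothelial and 6 monocyte markers, 0 were above or below 4-fold, whereas 7 of 12 dendritic or Langerhans, 5 of 8 fibroblast, 7 of 8 keratinocyte and 6 of 8 pericyte markers were at least 4-fold lower. Over the 32 cells, 0 of any of these lists were higher, and 2 of the 12 macrophage, 8 of the 8 endothelial and 1 of the 6 monocyte markers were lower. Of all genes, 34.7% were lower in the 32 cells, a larger share than that of the macrophage or the monocyte markers. Of the lists of rarer types, 4 of 5 neutrophil, 9 of 10 T, NK or innate lymphoid, 2 of 4 B, 6 of 7 Schwann, 4 of 5 melanocyte, 5 of 5 skeletal muscle, 3 of 3 adipocyte and 5 of 5 erythroid markers were lower in the 41 cells, and 0 were higher. Over all genes, 16.1% were lower in the 41 cells. A marker with 0 UMIs in the mast cells counted as lower at any depth. Such markers gave 6 of the dendritic or Langerhans, 1 of the keratinocyte and 1 of the pericyte calls. Among rarer types they gave 3 neutrophil, 9 T, NK or innate lymphoid, 2 B, 4 Schwann and 4 melanocyte calls. A further 2 skeletal muscle, 3 adipocyte and 2 erythroid calls were of this kind. The part of depth in these calls was not tested. In the 32 cells, C1qa was at 0 in 30 and Lyz2 in 26. The basophil list had 3 genes with enough UMIs, Cd200r3, Il4 and Il13, all higher and all with under 50 UMIs in the other cells, but its defining proteases Mcpt8 and Prss34 were each found in 1 cell, with 1 and 7 UMIs.

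Outside the mast cells, the 6 genes had 412 of their 9022 UMIs in the 3797 cells, so that 95.4% lay in the 41 cells. The trace was 8.18 CPM over 3756 cells. The 5 proteases were spread thinly over the classes, and Hdc was concentrated in some of them.

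The 5 proteases together had 102 UMIs in 101 of the 3756 cells, 2.69% of them (2.20 to 3.26%), and 100 of these cells had exactly 1 UMI. The rule takes cells with 2 of the genes out of this set, so that single UMIs are in part built in. With the 9 cells of 2 or 3 genes kept in, there were 121 UMIs in 110 of 3765 cells, of which 104 had 1 UMI and 6 had 2 to 4, at 2.39 CPM (1.98 to 2.86). Mcpt4 had 48 UMIs in 48 cells, Cma1 29 in 28, Cpa3 13 in 13, Tpsb2 9 in 9 and Tpsab1 3 in 3. The summed level was 2.03 CPM (1.65 to 2.46), against 44380 in the 32 cells. This trace is the measure of RNA free in the cell suspension, and other sources of it were not tested.

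Class by class, the protease level lay between 1.09 CPM (0.355 to 2.55) in the endothelial-like class and 3.48 (1.4 to 7.17) in the monocyte-like class, leaving out the unnamed cluster at 0.521. In the macrophage-like class it was 2.55 (1.83 to 3.46), with 41 UMIs in 1357 cells, and in the fibroblast-like class 2.09 (1.39 to 3.03), with 28 UMIs in 824 cells. Keratinocyte-like, Schwann-like and skeletal muscle-like cells, which do not make these proteases, had 1.47, 3.38 and 2.45 CPM. All these intervals overlap, so that no class stood out at this depth.

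In the libraries taken singly the trace was 2.15 CPM (1.68 to 2.72) with suffix 1 and 1.80 (1.23 to 2.54) with suffix 2. Over all barcodes of a library, the proteases were at 134 and 180 CPM, so that the trace was 1.60% and 0.997% of that level. The library with the larger share of mast cells did not have the larger trace, but the intervals overlap.

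With both libraries together, the intervals of the protease trace held the mast cell shares of Mcpt4, Cpa3 and Tpsb2. Mcpt4 was 47.1% of the trace (37.1 to 57.2%) and 47.9% of the protease UMIs of the 41 cells. Cpa3 was 12.7% (6.96 to 20.8%) against 17.6%, and Tpsb2 8.82% (4.11 to 16.1%) against 14.2%. Cma1 was at 28.4% (19.9 to 38.2%) against 19.8%, and Tpsab1, from 3 UMIs, at 2.94% (0.611 to 8.36%) against 0.536%, so that the intervals of both lie just above the mast cell values. With the 9 cells kept in, Cma1 was at 30.6% (22.5 to 39.6%), and the interval of Tpsab1 (0.514 to 7.07%) reached the mast cell value. Within the libraries, Cma1 was at 31.4% (20.9 to 43.6%) against 19.98% with suffix 1 and at 21.9% (9.28 to 40.0%) against 19.4% with suffix 2. Cpa3 with suffix 2, from 1 UMI, was at 3.13% (0.0791 to 16.2%) against 17.5%. Tpsb2 with suffix 1 was at 7.14% (2.36 to 15.9%) against 16.4%. Tpsab1 with suffix 2, from 2 UMIs, was at 6.25% (0.766 to 20.8%) against 0.517%. These intervals and that of Cma1 with suffix 1 miss the mast cell values, and the remaining ones within libraries hold them.

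The ratio of Hdc to the proteases was not the same across the classes. In the 41 mast cells there were 12.6 Hdc UMIs per 100 protease UMIs, and in the fibroblast-like class 14.3, from 4 Hdc and 28 protease UMIs. In the macrophage-like class there were 198 per 100, in the endothelial-like class 1240 and in the monocyte-like class 1700. Over all 3756 cells, Hdc had 310 UMIs in 129 cells and was 75.2% of the UMIs of the 6 genes (70.8 to 79.3%), against 11.2% in the mast cells.

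By level, the monocyte-like class came first at 59.1 CPM of Hdc (49.0 to 70.8), followed by the T, NK or innate lymphoid-like class at 16.1 (5.23 to 37.6, from 5 UMIs) and the endothelial-like class at 13.5 (10.4 to 17.4). The last 2 overlap. The first place of the monocyte-like class rested on 6 of its cells (5 with neutrophil markers and 1 with 17 Hdc UMIs), without which it was at 10.6 CPM (6.54 to 16.2) and overlapped both. The pericyte or smooth muscle-like class had 7.76 (4.6 to 12.3), which overlaps the endothelial-like class, and the macrophage-like class 5.03 (4.0 to 6.26), which overlaps the pericyte-like one. Dendritic or Langerhans-like cells had 2.44 (1.30 to 4.17) and keratinocyte-like cells 2.20 (0.808 to 4.79). Fibroblast-like cells had 0.299 (0.0815 to 0.766), and Schwann-like and skeletal muscle-like cells had 0 UMIs, which allows up to 3.38 and 3.67 CPM. Taking the fibroblast-like class, which was not planned as such, as the background for Hdc, its interval lies below that of each of the 7 classes named before it. The rule takes cells with Hdc and a protease out of this class. With its cells of 2 or 3 genes kept in, it was at 0.371 CPM (0.120 to 0.865). That interval overlaps the one of the keratinocyte-like class and lies below the others.

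**Figure D5:**
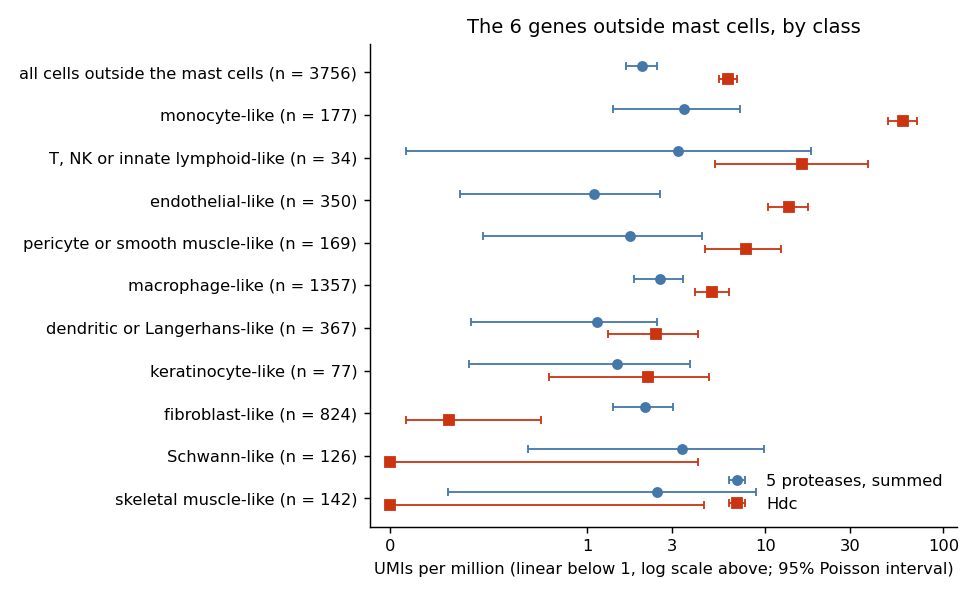
Level in CPM, with 95% Poisson intervals, of the 5 proteases summed (circles) and of Hdc (squares) in the 3756 cells outside the mast cells and in each named class; the axis is linear below 1 and logarithmic above. The circles stay between 1.09 and 3.48 in every class, while the squares run from 0 in Schwann-like and skeletal muscle-like cells to 59.1 in monocyte-like cells, a value that is 10.6 without 6 cells.

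With each cell thinned to 2000 UMIs, Hdc was found in 5.33% of 169 monocyte-like cells (2.46 to 9.87%), 3.09% of 324 endothelial-like cells (1.49 to 5.60%), 0.460% of 1304 macrophage-like cells and 0 of 777 fibroblast-like cells, which allows up to 0.386%. Before thinning these shares were 11.3%, 10.0%, 2.73% and 0.485%, at median depths of 10446, 9468, 10202 and 13090 UMIs. The proteases, thinned, were in 1.18%, 0.309%, 0.613% and 0.386% of the same cells. The thinning left out 8, 26, 53 and 47 cells as too shallow. Across these 4 classes, the Hdc shares stood in the same order as the levels. The T, NK or innate lymphoid-like class did not fall into this order. Its thinned share was the highest, at 8.82% (1.86 to 23.7%) from 3 of 34 cells, though its level was below that of the monocyte-like class. Thinned to 3000 UMIs, 1 of these 34 cells had Hdc.

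A few cells carried much of the Hdc outside mast cells. Of the 310 UMIs, 48.4% were in 12 cells with at least 5 each, and 39.7% in 8 cells with at least 10. In the monocyte-like class, 5 cells had at least 3 of 6 neutrophil markers (S100a8, S100a9, Csf3r, Retnlg, Cxcr2 and Ly6g), a choice made after their Hdc values had been seen. They had 22, 20, 17, 11 and 11 Hdc UMIs, 41 to 252 UMIs of S100a8, and 0 UMIs of Kit and of C1qa. They had 0 UMIs of the proteases by construction, since a cell with Hdc and a protease counts as a mast cell here.

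Their depth was low, at 2586 to 3837 UMIs, so that Hdc stood at 5327 CPM in them (4231 to 6621), which overlaps the 5575 (5228 to 5940) of the 32 mast cells. S100a8 and S100a9 encode the calgranulins of neutrophils. Of these 5 cells, 2 had suffix 1 and 3 had suffix 2. Without the 5, the remaining 172 monocyte-like cells had 38 Hdc UMIs, or 19.0 CPM (13.5 to 26.1), which is above the fibroblast-like background. One of the 172 alone had 17 of the 38, with 0 UMIs of S100a8 and 23 of the monocyte gene Plac8, and without it the level was 10.6 CPM (6.54 to 16.2).

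In the endothelial-like class, Hdc was unequal between clusters. The cluster led by Selp, the P-selectin gene of venules, held 36 of the 62 UMIs in 14 of 47 cells, at 35.5 CPM (24.9 to 49.2). The larger cluster led by Fabp4 and Aqp1 had 9.34 (6.04 to 13.8) and the cluster led by Ccl21a and Mmrn1, genes of lymphatic endothelium, had 1 UMI in 56 cells. The highest single cell, of the Selp-led cluster, had 14 UMIs among 43323, and without it that cluster was at 22.7 CPM (14.2 to 34.3). In the macrophage-like class, the 81 UMIs were in 37 of 1357 cells, with a highest value of 11, and 1 of its clusters with 278 cells had 0.

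By library, Hdc outside mast cells was at 6.05 CPM (5.24 to 6.96) with suffix 1 and 6.34 (5.23 to 7.63) with suffix 2. In the endothelial-like class it was 18.6 (13.5 to 24.9) and 8.16 (4.84 to 12.9). Without the single cell with 14 UMIs, suffix 1 was at 12.9 (8.69 to 18.4), which overlaps suffix 2. In the monocyte-like class it was 41.6 and 179, the latter from 18 cells that include 3 of the 5 with neutrophil markers. Such differences between single libraries have no replicate check.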

How the data were processed

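Libraries were made with 10x Genomics 3′ chemistry v3.1 from the cells of 2 pooled mice per age and read on a HiSeq X. The submitters' processing notes name Cell Ranger 4.0.0 and the build mm10. The authors deposited whole-number UMI counts per gene and barcode, both libraries in 1 matrix without normalization. No source used here says how the 5257 deposited barcodes were selected. No column of samples was left unused (0).

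The 6 genes, the cell rule and the gene lists were chosen with earlier results of these data known. Named genes are the 6, every gene of the mast cell lists that was detected or that defines by its absence, and the 10 genes most like the 6, while cell type markers are given mainly as counts. Exceptions chosen after their values were seen are the cells with neutrophil markers, the endothelial-like clusters, the 27 cells of the mast-like cluster and values without 1 cell. Software was scanpy 1.11.5, leidenalg 0.10.2, scipy 1.17.1, pandas 2.3.3 and numpy 2.4.6 under Python 3.11.15. Cells were scaled to 10000 UMIs, and 2000 variable genes without the listed mast cell genes and a graph of 15 neighbours in 30 principal components were used for Leiden clusters (resolution 1). A cluster took the name of the list with the highest mean log2 excess over the median cluster (pseudocount 10 CPM), if 3 or more of its markers reached both 20 CPM and 2 times the level of the median cluster. The mean excess also had to be at least 1, and no other list could hold more of the 10 leading genes of the cluster. The erythroid list named no cluster. The unnamed cluster of 133 cells had dendritic or Langerhans as its best list. No doublet caller was run.

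UMIs were summed per set of cells. Levels have exact 95% Poisson intervals and shares have Clopper-Pearson intervals. Both cover counting error only, cells are not replicates, and no p-value was computed. A sum of 0 is given the limit of 3 UMIs. A gene counted as higher with at least 5 UMIs in the mast cells and a 4-fold ratio. It counted as lower with a 4-fold ratio alone, also at 0 UMIs in the mast cells. Of 32285 gene identifiers, 32158 were found in GENCODE vM21. Ratios, intervals and thinning were tested on simulated data. Alternatives changed the cell filter, the rule for mast cells, the weighting, the depth of thinning, the resolution, the low-count filter and the library.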

Additional observations from a re-analysis of the deposited data

Results flagged for a closer look

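The barcodes that the cell filter left out entered only the totals of whole libraries and the alternatives with another filter, and they held a signal of the 6 genes. In 10 of these 1460 barcodes at least 4 of the 6 genes were detected, with 33 to 157 UMIs of them per barcode and 767 in all. Every one of the 10 was over the limit of 10% mitochondrial UMIs, at 10.1 to 38.3%. By library, 4 had suffix 1 and 6 had suffix 2. No left-out barcode had 2 or 3 of the genes, and 31 had 1 of them with 1 to 3 UMIs. With no control samples, the signal was above the limit that a count of 0 allows.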

How the results depend on the processing

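No paired analysis was possible because no result comes from a test, each age has 1 library and no barcode suffix is tied to an age. The number of mast cells was 41 and became 271 with 1 gene as the rule, 23 among the 3575 cells deep enough for thinning to 2000 UMIs, and 19 at a mitochondrial limit of 5%; the other 6 alternatives gave 31 to 51. The summed level of the 6 genes in mast cells, 19619 CPM, depended on the rule, at 41924 with 3 genes, 49955 with 4 genes, 53002 with 1% of UMIs, 75700 in the 27 cells of the mast-like cluster with under 100 macrophage marker UMIs (added after seeing the data) and 47113 as the mean over cells. It was 20314 without a filter, 11313 at a mitochondrial limit of 5% and 19096 with suffix 2 alone. The 9 deep cells with 2 or 3 genes are what separates the rule of 2 from that of 4. The trace in other cells, 8.18 CPM, was 15.04 outside the mast-like cluster and 9.20 at a mitochondrial limit of 5%, and, added after seeing the data, 6.57 without the 5 cells with neutrophil markers and 2.03 for the proteases alone. The set outside the mast-like cluster takes in cells 17, 28 and 29, which held 197, 65 and 62 of its 762 UMIs. The thinned share of macrophage-like cells with a UMI of the genes, 1.07%, stayed within its interval under all 4 alternatives (0.811 to 1.66%). The 228 genes at least 4-fold higher became 365 with 4 genes, 370 with 1% of UMIs and 131 with a minimum of 200 UMIs, and lay between 210 and 316 under the other 5, of which 210, with 50 UMIs required in the other cells alone, was added after seeing the data. Depth limits Tpsab1, Ctsg and other genes with few UMIs.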
